A study of Mus musculus with 12 samples.

Results

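Which switch (S) regions are joined in WT B cells activated in 2 ways was measured in 6 of the 12 CSR-HTGTS-seq libraries of the series. These are 3 libraries from splenic B cells stimulated with αCD40/IL4 and 3 from cells stimulated with LPS/αIgD-dextran, chosen by their labels, and they hold 32161 of the 53012 junctions listed. Both groups carried an intact IgH locus and active AID and were collected at 96 h. The cells were CD43-negative splenic B cells from RDBC chimeras, in which mature B cells come from injected TC1 ES cells because the host makes none of its own. Neither group was sampled before stimulation, so each comparison is of one stimulation with the other. The labels do not say that the 3 libraries of a group came from separate chimeras, and the p-values then measure the spread between libraries, which may be technical.

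In class switch recombination (CSR), activation-induced cytidine deaminase (AID) deaminates cytidines in transcribed S regions, most often within AGCT and related motifs, and the lesions are processed to double-strand breaks. A break in the donor region Sμ joined to a break in an acceptor region placed before a downstream constant gene deletes the DNA between them and changes the antibody class. The choice of acceptor follows germline transcription from the I promoter before each S region. IL4 with CD40 ligation, which imitates T-cell help, is known to activate the Iγ1 and Iε promoters. LPS, a bacterial lipopolysaccharide, activates Iγ3 and Iγ2b, while αIgD-dextran engages surface IgD, part of the B-cell receptor.

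CSR-HTGTS-seq starts from a primer at the 5′ end of Sμ (the bait) and reads across the broken bait end into the sequence joined to it (the prey). The bait is shown first because every junction begins in it. Its bases were read from the aligned reads on the minus strand, which is the sense strand of IgH, at chr12:114669139-114669258 of the AJ851868/mm9 hybrid genome, with AGCT in capitals.
5′Sμ bait: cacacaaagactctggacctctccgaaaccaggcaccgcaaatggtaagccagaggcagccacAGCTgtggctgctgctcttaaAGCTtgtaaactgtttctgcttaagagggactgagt
This stretch holds AGCT at bases 64 to 67 and at bases 85 to 88, counted from the bait start.

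For each S region the prey position used by the most junctions of the 6 libraries is shown with 25 bases on either side, since these are the acceptor ends that recurred. The letters are the most frequent base of the aligned preys at each position, 5′ to 3′ on the minus strand, with AGCT in capitals, and the prey began at base 26 of each.
Sμ (chr12:114668977-114669027): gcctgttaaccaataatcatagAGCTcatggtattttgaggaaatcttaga
Sγ3 (chr12:114604167-114604217): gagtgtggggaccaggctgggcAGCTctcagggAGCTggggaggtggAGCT
Sγ1 (chr12:114571115-114571165): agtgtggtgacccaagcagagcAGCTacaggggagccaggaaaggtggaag
Sγ2b (chr12:114546823-114546873): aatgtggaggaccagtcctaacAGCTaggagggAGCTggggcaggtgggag
Sγ2a (chr12:114531046-114531096): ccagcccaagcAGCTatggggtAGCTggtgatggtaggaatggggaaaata
Sε (chr12:114514966-114515016): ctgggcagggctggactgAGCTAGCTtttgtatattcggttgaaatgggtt
In all 6 of these regions the most used prey position was the last base, T, of an AGCT, in deletional orientation. The Sμ position was found 45 times and in all 6 libraries, 23 times with αCD40/IL4 and 22 with LPS/αIgD-dextran. The Sε position was found 20 times and the Sγ1 position 10 times, all of them with αCD40/IL4. The Sγ2b, Sγ2a and Sγ3 positions were found 15, 10 and 9 times, all with LPS/αIgD-dextran. Each took under 1% of its region's junctions, from 0.285% in Sγ1 to 0.665% in Sε, and these junctions had 7 to 33 different bait ends, so they were not copies of a single event.

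The lists held 3703, 5015 and 4705 junctions with αCD40/IL4 and 4203, 6274 and 8261 with LPS/αIgD-dextran, of which 3476, 3830 and 3499, and 3933, 4940 and 6097, lay in the 300-kb IgH window (chr12:114400001-114700000). The αCD40/IL4 lists hold only a minor part of the Sγ1 junctions that the study counted, which were several-fold more in each library. Shares of the other regions were therefore taken over IgH junctions outside Sγ1, and the Sγ1 values below are those of the partial lists. A total of 845 junctions (same bait end, prey position and orientation) were listed in both LPS/αIgD-dextran replicates 2 and 3, or 17.6% of the smaller list, against 2.04 to 3.89% for the other pairs of the same stimulation. Whether replicates 2 and 3 are independent libraries is not known. The SD and n = 3 given for LPS/αIgD-dextran treat them as independent and may understate the spread. The run number in the read names gave 3 sequencing runs, and 2 of these held both stimulations. With 3 libraries against 3, the smallest p of an exact two-sided permutation test is 0.1. A difference was therefore called where no library of one group reached into the range of the other and, for region shares, Fisher's exact test of pooled counts also passed after adjustment over 10 regions. Region boundaries cover each I exon, S region and its constant exons, and all intervals cover counting error only.

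The acceptors used with the 2 stimulations hardly overlapped. With αCD40/IL4 the acceptor junctions lay in Sε and Sγ1, and with LPS/αIgD-dextran they lay in Sγ2a, Sγ2b and Sγ3. Of the 10 regions compared, 6 were called (60.0%): Sε, Sγ1 and Sμ, higher with αCD40/IL4, and Sγ3, Sγ2b and Sγ2a, higher with LPS/αIgD-dextran. Pooled shares of these 5 acceptors differed between the stimulations by 46.6-fold or more.

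Sε, the S region of the IgE constant gene (chr12:114505001-114521000), held 961, 1023 and 1022 junctions in the αCD40/IL4 libraries. These were 40.7%, 39.1% and 42.3% of the IgH junctions outside Sγ1, a mean of 40.7% ± 1.61 (SD, n = 3). The LPS/αIgD-dextran libraries held 0, 0 and 2 Sε junctions. For replicates 1 and 2 a count of 0 allows shares of up to 0.0766% and 0.0611%, and the 2 junctions of replicate 3 were 0.0331% of its total (Wilson 95% interval, 0.00907 to 0.120%). The groups did not overlap, and the pooled shares differed 3024-fold, with a 95% interval from 836-fold to 24981-fold that rests on those 2 junctions. The central 90% of Sε junctions fell within 2264 ± 21.5 bases (SD, n = 3). With LPS/αIgD-dextran this span was 2754 ± 114 in Sγ2b, 3165 ± 94.5 in Sγ3 and 3930 ± 50.5 in Sγ2a. In the partial Sγ1 lists with αCD40/IL4 it was 10712 ± 150.

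Sγ1, which serves IgG1 (chr12:114556001-114585000), held 1113, 1214 and 1084 junctions with αCD40/IL4, or 32.0%, 31.7% and 31.0% of all IgH junctions of the partial lists. The LPS/αIgD-dextran libraries held 15, 32 and 47, or 0.381%, 0.648% and 0.771%. Every αCD40/IL4 library lay above every LPS/αIgD-dextran library, with a pooled ratio of 50.3 (95% interval, 41.0 to 62.4) for the lists as deposited. In the study's own counts Sγ1 far exceeded Sε with αCD40/IL4, a gap that is much reduced in the partial lists. The few Sγ1 junctions found with LPS/αIgD-dextran lay toward the upstream end of the region. Their median position was 114575745, 114574902 and 114577050 in the 3 libraries, against 114572701, 114572898 and 114573641 with αCD40/IL4. Since IgH is read from high to low coordinates, this places them 2819 bases closer to Sμ on average, without overlap between libraries. This measure was added after the positions were seen, and which Sγ1 junctions the αCD40/IL4 lists lack is not known.

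The γ acceptors before the IgG3, IgG2b and IgG2a constant genes showed the opposite order. Sγ2a (chr12:114521001-114536000) held 904, 1139 and 1386 junctions with LPS/αIgD-dextran, 23.1%, 23.2% and 22.9% of IgH junctions outside Sγ1. With αCD40/IL4 it held 5, 3 and 4, a mean of 0.164% ± 0.0485 (SD, n = 3). The pooled ratio was 142 (95% interval, 81.2 to 275). Sγ2b (chr12:114536001-114556000) held 860, 1042 and 1285 junctions, 21.9%, 21.2% and 21.2%, against 11, 10 and 13 with αCD40/IL4, and the ratio was 46.6 (95% interval, 33.3 to 67.4). Sγ3 (chr12:114595001-114615000) held 567, 681 and 879 junctions, 14.5%, 13.9% and 14.5%, against 3, 4 and 3, and the ratio was 106 (95% interval, 57.4 to 221). Libraries of the 2 stimulations did not overlap at any of the 3.

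Within the LPS/αIgD-dextran libraries the order of the acceptors was the same each time. Sγ2a held 1.05, 1.09 and 1.08 times as many junctions as Sγ2b, and Sγ2b held 1.52, 1.53 and 1.46 times as many as Sγ3. Sγ2a, the most distant of the 3 from Sμ, was thus the most used and Sγ3, the nearest, the least used. For each junction within Sμ there were 0.568 ± 0.00886, 0.529 ± 0.0187 and 0.352 ± 0.0140 junctions in Sγ2a, Sγ2b and Sγ3 (SD, n = 3). With αCD40/IL4 there were 0.701 ± 0.0493 Sε junctions for each Sμ junction. These ratios do not depend on how many Sγ1 junctions were listed.

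The off-pattern junctions were few but present in every library. With αCD40/IL4 a total of 56 junctions lay in Sγ3, Sγ2b and Sγ2a, and Sγ2b held the most of them, 34. None of the 56 was also listed, at the same bait end, prey position and orientation, in an LPS/αIgD-dextran library. Conversely, 96 LPS/αIgD-dextran junctions lay in Sγ1 and Sε, and 3 of these were also listed with αCD40/IL4. Over the whole window the 9 pairs of libraries of unlike stimulation had 23 to 63 junctions in common.

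Regions that are not acceptors of either program held few junctions and differed by less than the spread between libraries or failed the junction test. Sα, the S region for IgA (chr12:114497001-114505000), held 2, 3 and 4 junctions with αCD40/IL4 and 10, 7 and 12 with LPS/αIgD-dextran, shares of 0.122% ± 0.0409 and 0.199% ± 0.0563 (SD, n = 3), which overlapped (exact permutation p = 0.2). The interval of the ratio of LPS/αIgD-dextran to αCD40/IL4 ran from 0.738 to 3.85. The 3′ regulatory region (3′IgHRR), the enhancers at the end of the locus, held 8 and 9 junctions in all, and the 3′IgH CBEs, the CTCF-binding elements beyond it, held 6 and 11. With the boundaries used here, the 6-kb sequence just beyond the 3′IgH CBEs (chr12:114448001-114454000) held none in any of the 6 libraries. The study's own count for this sequence was not nil in every WT library with LPS/αIgD-dextran.

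**Figure D1:**
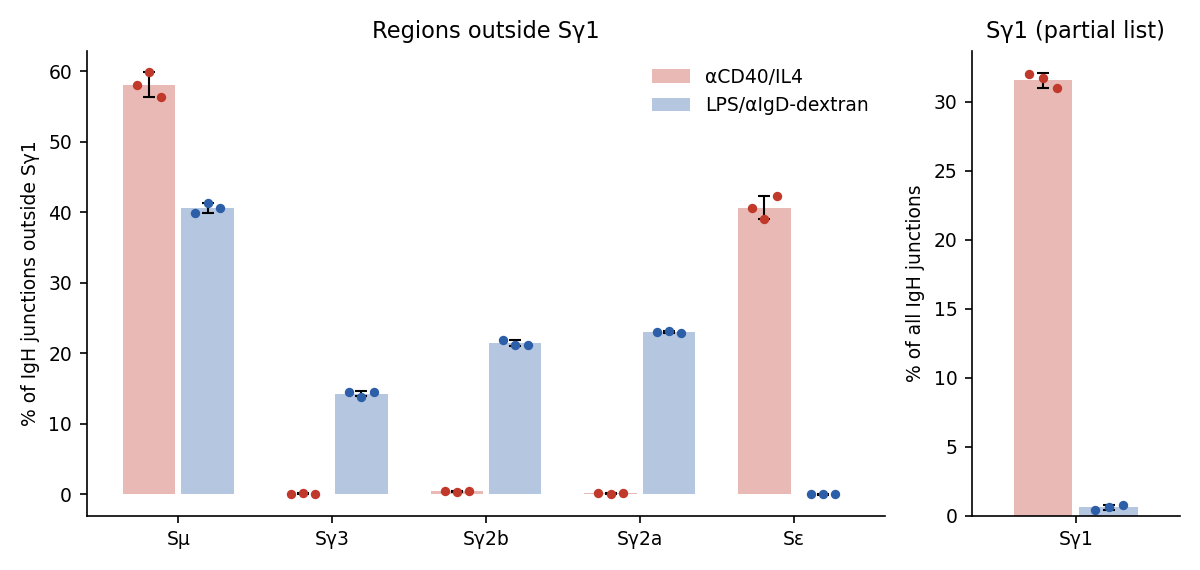
Share of junctions in each S region, as a percentage of IgH junctions outside Sγ1 (left) and, for Sγ1, of all IgH junctions listed (right). Points are the 3 libraries of each stimulation, bars their mean and error bars the SD. Sε and Sγ1 are near 0 with LPS/αIgD-dextran, and Sγ3, Sγ2b and Sγ2a are near 0 with αCD40/IL4.

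Sμ itself is broken with both stimulations, and joins between the bait and the rest of Sμ made up the largest group of junctions listed. With αCD40/IL4 this order holds for the deposited lists only, since they lack part of the Sγ1 junctions. Sμ (chr12:114657001-114675000) held 1373, 1568 and 1361 junctions with αCD40/IL4, 58.1%, 59.9% and 56.4% of IgH junctions outside Sγ1, and 1564, 2026 and 2461 with LPS/αIgD-dextran, 39.9%, 41.3% and 40.7%. The groups did not overlap, with means of 58.1% ± 1.79 and 40.6% ± 0.682 (SD, n = 3). This difference depends on what it is divided by. With Sγ1 junctions included, the shares were 39.8% and 40.4% and the libraries overlapped (exact permutation p = 0.4), and the αCD40/IL4 share would fall further with the Sγ1 junctions that are not listed.

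The distribution of junctions along the locus was compared in 3-kb bins outside Sγ1, each by Fisher's exact test, adjusted by the Benjamini-Hochberg method, with the same requirement that libraries did not overlap. Of the 25 bins tested, 14 were called (56.0%), 10 higher and 4 lower with LPS/αIgD-dextran. All of the called bins lay within the S regions named above. In Sμ the bin that holds the bait, chr12:114667001-114670000, held 45.7% of junctions with αCD40/IL4 and 28.0% with LPS/αIgD-dextran. The next bin, chr12:114664001-114667000, held 10.5% and 11.0% and was not called. The bin after it, chr12:114661001-114664000, went the other way, with 0.341% and 0.754% (25 and 111 junctions). These are shares of IgH junctions outside Sγ1, so the Sμ bins depend on that denominator as the whole Sμ share does.

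Counted within Sμ alone, so that no other region enters, LPS/αIgD-dextran junctions reached deeper into the region. The share of Sμ junctions with a prey end more than 3 kb downstream of the bait start was 12.2%, 11.7% and 13.0% with αCD40/IL4. With LPS/αIgD-dextran it was 22.8%, 19.6% and 20.6%. The means of 12.3% ± 0.670 and 21.0% ± 1.64 (SD, n = 3) differed 1.71-fold, without overlap (exact permutation p = 0.1). This distance was set after the profile had been seen. The difference was 10.6 percentage points in the run that held replicate 1 of both groups and 8.43 in the run that held αCD40/IL4 replicate 2 with LPS/αIgD-dextran replicates 2 and 3.

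The profile shows where the difference lay. Deletional junctions 1 to 1.5 kb from the bait start made up 15.2% of Sμ junctions with αCD40/IL4 and 9.95% with LPS/αIgD-dextran. Deletional junctions 4 to 4.5 kb away made up 3.00% and 5.29%. In the first 0.5 kb the shares were 30.1% ± 3.22 and 28.1% ± 0.549 (SD, n = 3). The median length of a deletion within Sμ was 880, 711 and 958 bases with αCD40/IL4 and 1097, 1009 and 1069 bases with LPS/αIgD-dextran, or 850 ± 126 and 1058 ± 44.7 (SD, n = 3), without overlap (exact permutation p = 0.1). In merged reads of 200 to 300 bases, chosen because read length differed between the groups, the medians were 501 and 752 bases and still did not overlap.

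**Figure D2:**
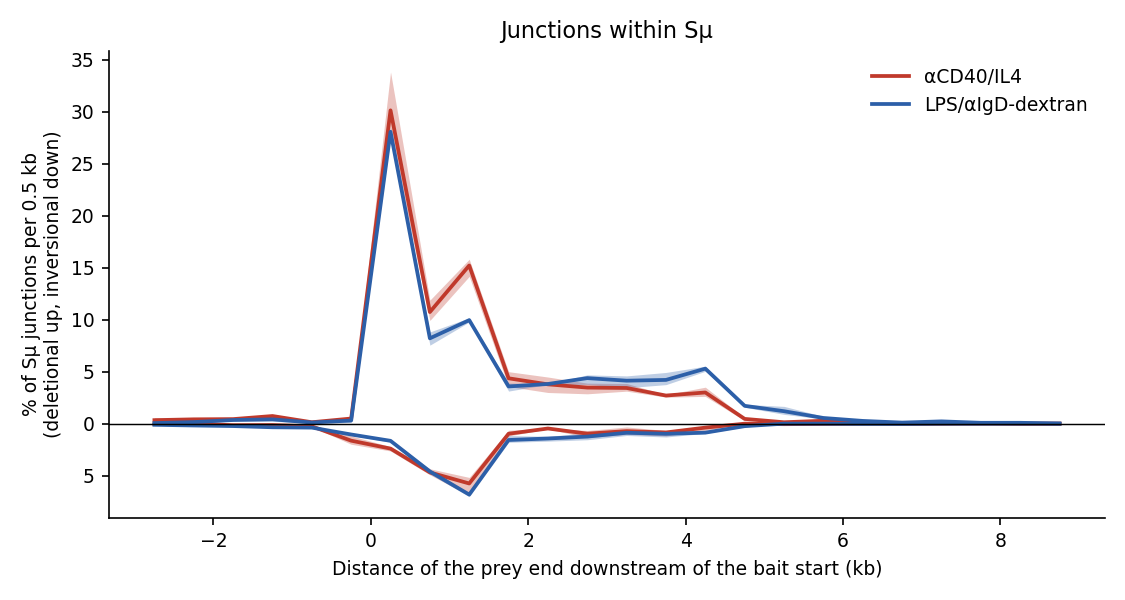
Junctions within Sμ by distance of the prey end downstream of the bait start, in steps of 0.5 kb, as a percentage of each library's Sμ junctions. Deletional junctions are drawn upward and inversional ones downward, lines are means of 3 libraries and shading is their range. The αCD40/IL4 line is higher at 1 to 1.5 kb and the LPS/αIgD-dextran line is higher beyond 3 kb.

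The orientation of a join separates productive CSR, which is deletional, from inversions, which leave the constant genes in place. Within Sμ 19.1%, 18.8% and 20.5% of junctions were inversional with αCD40/IL4 and 22.4%, 23.9% and 21.5% with LPS/αIgD-dextran. The means were 19.5% ± 0.906 and 22.6% ± 1.19 (SD, n = 3) and the libraries did not overlap (exact permutation p = 0.1). Prey length moved with this result: the median prey was 93 to 95 bases with αCD40/IL4 and 100 to 110 with LPS/αIgD-dextran, and with preys of at least 100 bases the shares were 22.9% and 24.3% and overlapped (exact permutation p = 0.7). In merged reads of 200 to 300 bases they were 20.6% and 23.3% and overlapped too. Within the 2 runs that held both stimulations the difference was 3.36 and 3.90 percentage points.

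All acceptors were joined more often in deletional orientation than Sμ was. The inversional share was 13.0% ± 0.180 in Sγ3, 8.88% ± 0.642 in Sγ2b and 8.44% ± 1.46 in Sγ2a with LPS/αIgD-dextran, and 12.9% ± 0.906 in Sγ1 and 5.67% ± 0.636 in Sε with αCD40/IL4 (SD, n = 3). Sγ3 and Sγ1 did not differ beyond their spread, and neither did Sγ2b and Sγ2a. The highest Sε library, at 6.26%, lay below the lowest Sγ2a library, at 7.36%.

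Taken as whole classes, joins with microhomology, joins with insertions and blunt joins overlapped between the stimulations. Of deletional Sμ junctions, 54.3%, 54.2% and 53.3% had at least 1 base of microhomology (bases that both ends could have supplied) with αCD40/IL4, and 56.1%, 54.7% and 53.8% with LPS/αIgD-dextran. The means of 53.9% ± 0.528 and 54.9% ± 1.13 (SD, n = 3) overlapped (exact permutation p = 0.3), and the interval of the pooled ratio of LPS/αIgD-dextran to αCD40/IL4 was 0.955 to 1.08. Junctions with inserted bases made up 20.2% ± 1.36 and 20.8% ± 0.959 (exact permutation p = 0.5, SD, n = 3). Blunt joins made up 25.8% ± 1.88 and 24.3% ± 0.765. Insertions of 5 bases or more, a length singled out after its values were seen, were 3.42 to 3.53% of junctions with αCD40/IL4 and 4.20 to 5.06% with LPS/αIgD-dextran. A long insertion needs a longer read, and the median merged read was 227 to 248 bases with αCD40/IL4 and 259 to 262 with LPS/αIgD-dextran. The part of read length in that difference was not tested.

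In the acceptors the microhomology share ranged from 54.9% ± 0.651 in Sε and 55.9% ± 1.97 in Sγ1 to 56.1% ± 0.773 in Sγ3, 57.5% ± 0.487 in Sγ2b and 57.6% ± 1.99 in Sγ2a (SD, n = 3). Neighbours in this order overlapped, except that the Sγ2b libraries, between 57.0% and 57.9%, all lay above the Sγ3 libraries, between 55.2% and 56.7%. They also lay above all 3 Sε libraries, which ranged from 54.2% to 55.5%. Microhomology of 4 bases or more was found in 8.18% of deletional Sμ junctions with αCD40/IL4 and 9.09% with LPS/αIgD-dextran, and in 8.99 to 10.4% of those in the acceptors.

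**Figure D3:**
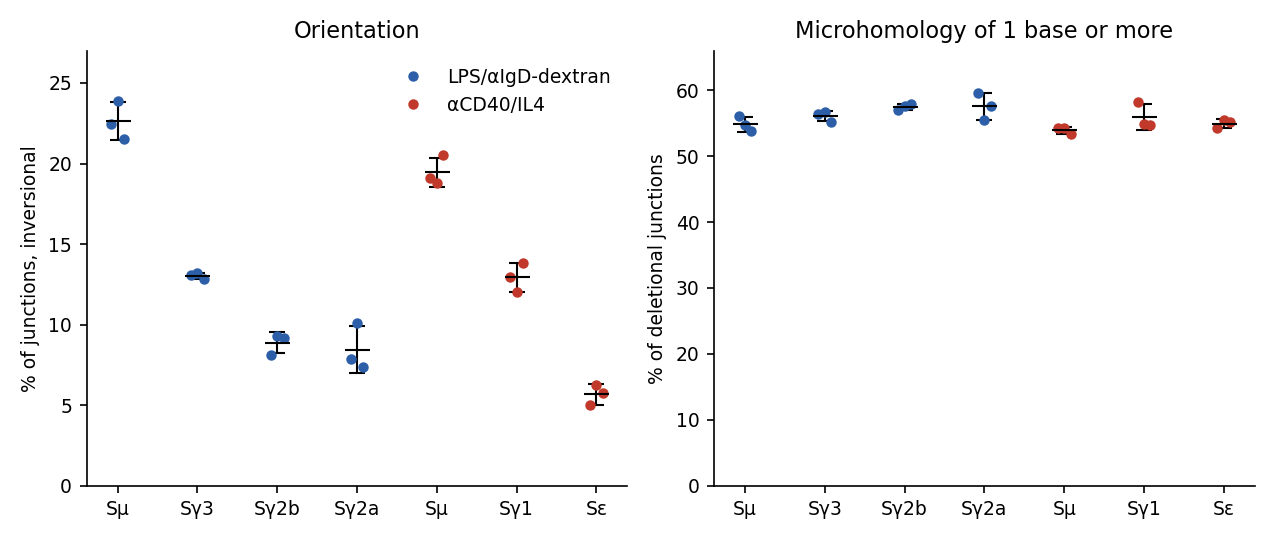
Inversional share of all junctions (left) and share of deletional junctions with at least 1 base of microhomology (right) for each S region, in percent. Points are libraries, the horizontal mark is the mean and error bars the SD of 3 libraries. Inversions are most frequent in Sμ and least frequent in Sε, while microhomology lies between 53.3% and 59.5% everywhere.

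The prey ends in the sequences shown above were the last base of AGCT. Counted over deletional junctions, this base was used more than its share of positions in every region, although most junctions began elsewhere. In Sε 9.99% ± 0.376 of deletional junctions began at the last base of an AGCT, a base that makes up 2.39% of the positions read, a 4.18-fold excess (SD, n = 3). The excess was 4.01-fold in Sγ3, 3.43-fold in Sγ1, 3.40-fold in Sγ2b and 3.25-fold in Sγ2a. In Sμ, where AGCT is denser and each base of the motif makes up 4.89% of positions, it was 1.99-fold with αCD40/IL4 and 1.92-fold with LPS/αIgD-dextran. The other bases of the motif were used 0.834 to 2.06 times as often as their share of positions. These ratios describe positions covered by at least 3 preys and carry no test.

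AGCT was searched on both strands, on which it reads the same, and a junction was counted when its prey end lay in the motif or next to it. Within Sμ, both orientations together, 32.2%, 29.5% and 35.3% of junctions met this with αCD40/IL4 and 35.9%, 35.4% and 36.0% with LPS/αIgD-dextran, while 26.9% of the 9504 positions read do. The means of 32.3% ± 2.87 and 35.8% ± 0.294 (SD, n = 3) did not overlap, although αCD40/IL4 replicate 3 lay just below the lowest LPS/αIgD-dextran library. The difference of 3.45 percentage points was 2.05 without αCD40/IL4 replicate 2, where Fisher's exact test on pooled junctions gave 0.0631. In merged reads of 200 to 300 bases it was 6.29 points. With the wider DGYW/WRCH motif the shares were 50.6% and 49.7% and overlapped (exact permutation p = 0.6), with 42.3% of positions in the motif. In the acceptors the share of deletional junctions in or next to AGCT was 17.9% in Sγ1, 19.4% in Sγ2a, 23.5% in Sγ2b, 25.7% in Sγ3 and 27.4% in Sε, which was 1.59 to 1.97 times the share of their positions.

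**Figure D4:**
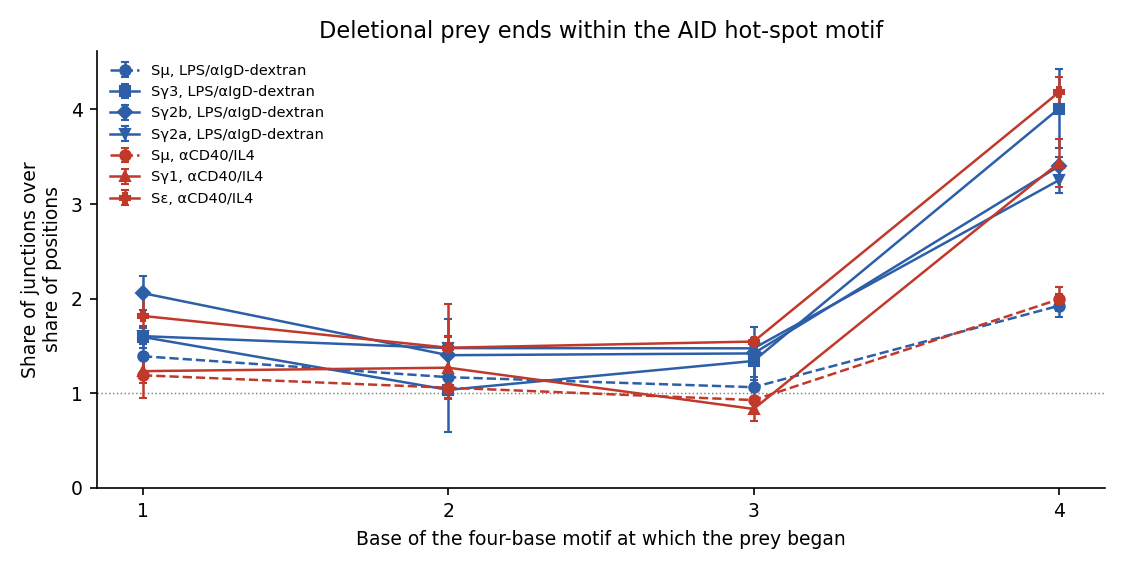
Base of AGCT, numbered 5′ to 3′ on the sense strand, at which deletional preys began, as the share of junctions divided by the share of positions read. Points are means and error bars the SD of 3 libraries, and the dotted line marks equal use. Every region and both stimulations rise at base 4, to 1.92 to 4.18 times.

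On the bait side, ends were counted at bases 30 to 120 of the amplified stretch, with peaks at and near its first AGCT. Ends elsewhere were not compared base by base but stay in the denominators. With αCD40/IL4 the 2 most used counted ends were base 64, the A of AGCT, and base 76. They held 3.39% ± 0.250 and 2.46% ± 0.405 of IgH junctions outside Sγ1 (SD, n = 3). With LPS/αIgD-dextran the 2 most used were base 65, the G of AGCT, with 3.30% ± 0.0889, and base 77 with 2.86% ± 0.113. Base 64 held 2.84% ± 0.349 with LPS/αIgD-dextran and overlapped with αCD40/IL4. At base 65 the αCD40/IL4 share was 2.35% ± 0.260 and at base 77 it was 2.19% ± 0.112, and neither overlapped with LPS/αIgD-dextran. These are 2 of 29 bases where the libraries of the stimulations did not overlap. Among bases 31 to 120 a junction ended at 90, so the 29 were 32.2% of them. The αCD40/IL4 share was higher at 17 of the 29, with a median place at base 46, and the LPS/αIgD-dextran share at 12, with a median at base 85.5. The part of read length in these differences was not tested base by base. The aligned bait began 1 to 2 bases apart in some libraries, and these positions were all counted from a fixed base.

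The median bait break lay 69, 70 and 68 bases from the bait start with αCD40/IL4 and 75, 74 and 75 bases with LPS/αIgD-dextran, means of 69.0 and 74.7 (SD 1 and 0.577, n = 3), without overlap (exact permutation p = 0.1). Counted from a fixed base the means were 69.0 and 73.7. In merged reads of 200 to 300 bases, counted from the fixed base, both means were 80.3, so the difference was not seen among reads of like length.

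**Figure D5:**
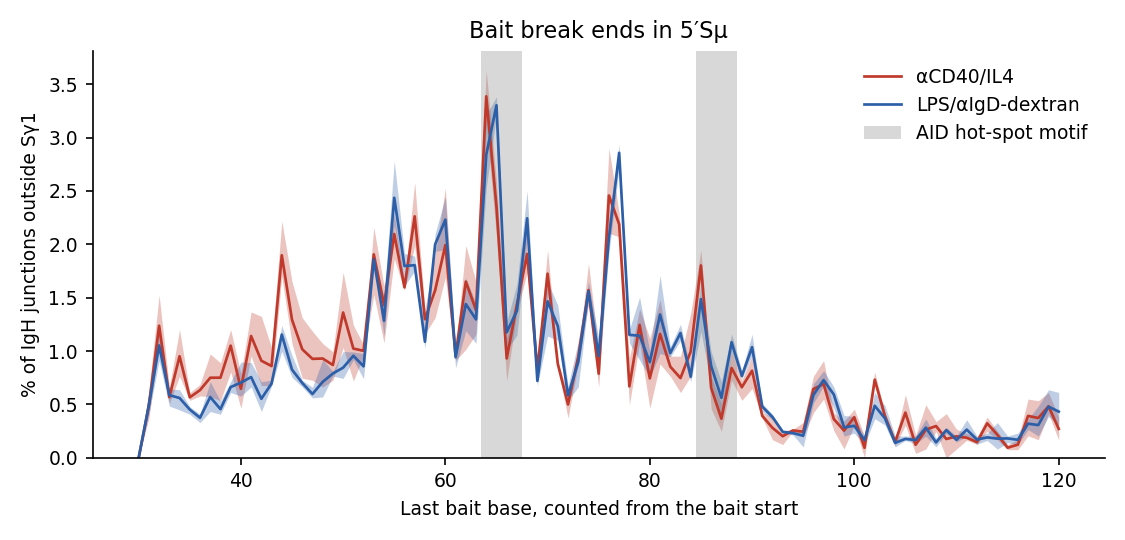
Last bait base of IgH junctions outside Sγ1, shown for bases 30 to 120 counted from the bait start, in percent of all such junctions. Lines are means of 3 libraries, shading their range, and grey bands the AGCT motifs at bases 64 to 67 and 85 to 88. Both stimulations peak in the first motif and again near base 77.

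Junctions outside the IgH window are translocations or background. Of the 6386 such junctions, 4473 had preys that were at least 70% G, and these were left out. They numbered 16 and 18 in replicate 1 of the 2 groups, which shared a sequencing run, and 928 to 1616 in the other libraries. The remaining 729 and 1184 were 8.97% ± 0.778 and 7.20% ± 1.13 of junctions outside Sγ1 (SD, n = 3), which overlapped (exact permutation p = 0.2). Compared by replicate number with this denominator, LPS/αIgD-dextran was lower each time, but the labels do not say that same-numbered libraries were paired. The difference of -1.76 percentage points was called with the replicate block, which here required only that same-numbered differences share a direction. Within the 2 runs that held both stimulations it was -2.15 and -1.16 points. This direction depends on leaving Sγ1 out of the denominator. The kept junctions numbered 211, 257 and 261 with αCD40/IL4, beside 3476, 3830 and 3499 in the whole IgH window. With LPS/αIgD-dextran they numbered 252, 384 and 548, beside 3933, 4940 and 6097. Set against the whole window, LPS/αIgD-dextran was the higher at each replicate number. Of preys at coordinates shared with mm9, 1802 of 1832 (98.4%) matched mm9 in at least 17 of their first 20 bases. The 81 on chromosome 12 above the window did not match mm9 at the coordinates listed and were not annotated.

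Il4ra, which encodes the α chain of the IL4 receptor (chr7:132695785-132722986, plus strand), held 7, 0 and 7 junctions with αCD40/IL4 and none in the 3 LPS/αIgD-dextran libraries. All 14 lay in intronic sequence between 123 and 3458 bases downstream of the gene's start, 7 in each orientation and at 13 different positions. Its neighbour Il21r, the IL21 receptor gene (chr7:132746943-132777084, plus strand), held 1, 2 and 0 with αCD40/IL4 and none with LPS/αIgD-dextran, between 215 and 1881 bases from its start. For both genes together the counts were 8, 2 and 7 against 0, 0 and 0, or 2.42% ± 1.52 of junctions outside the window (SD, n = 3), without overlap (exact permutation p = 0.1). Pooled, this was at least 9.20-fold higher than the 3 junctions of 1184 that a count of 0 allows. The pair was not among the 18 genes and loci listed. Each gene alone overlapped (exact permutation p = 0.4 for each), so the absence of overlap rests on joining them. For Il4ra alone the libraries overlapped, because replicate 2 held none, and Fisher's exact test on pooled junctions, adjusted over the 11 genes and loci that held a junction, gave 1.39e-05, which compares junctions and not replicates.

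Of the 18 genes and loci listed as known AID or translocation targets in B cells, 11 held a junction in these libraries and Il4ra was the only one to pass that adjusted test. Mir142, a microRNA gene abundant in blood cells (chr11:87570366-87570429), held 2, 1 and 1 junctions with LPS/αIgD-dextran within 2 kb and none with αCD40/IL4. Gpr183, a receptor gene known for guiding B-cell migration, which lies within Ubac2, held 3 junctions with αCD40/IL4 and none with LPS/αIgD-dextran. Pim1, a kinase gene, held 1 and 3 junctions in all, and Myc held 1, with αCD40/IL4. Cd83 and Pax5 held 2 each with αCD40/IL4, and Ebf1 and the Igλ locus held 1 and 2 with LPS/αIgD-dextran. Bcl6, Btg1, Btg2, Junb, Birc3, Rhoh and Cd79b held none. The Igκ locus, the main light-chain locus, held 0, 3 and 4 junctions with αCD40/IL4 and 3, 2 and 6 with LPS/αIgD-dextran, shares of 0.900% ± 0.800 and 0.935% ± 0.362 (SD, n = 3), which overlapped.

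Of the 5 1-Mb bins with the most junctions, the one with Il4ra came first. The bins were picked by their junctions in both groups together, so a high count in 1 group could bring a bin in. No test is therefore given for them, and the share of all 1-Mb bins without overlap was not computed. The bin chr6:129000001-130000000 held 4, 6 and 4 junctions with αCD40/IL4 and 1, 1 and 0 with LPS/αIgD-dextran. These were 1.92% ± 0.402 and 0.219% ± 0.202 of junctions outside the window (SD, n = 3), and the libraries did not overlap. All but 1 of these 16 junctions lay in Clec2d (chr6:129130633-129136552), which encodes a C-type lectin-like membrane protein, 12 of them in introns and 3 in exons. The bin chr12:113000001-114000000, beyond the 3′ end of IgH, held 1, 5 and 3 junctions with LPS/αIgD-dextran and none with αCD40/IL4, and 4 of the 9 lay in the first 638 bases of Adssl1, an adenylosuccinate synthase gene. A bin on chromosome 17 held 7 and 2 junctions, all within 36 bases of an intron of Trerf1 and with preys of 30 to 41 bases. The bin at the 3′ end of Igκ, chr6:70000001-71000000, held 7 and 10.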

How the data were processed

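The authors amplified CSR-HTGTS-seq libraries from a 5′Sμ primer, mapped reads to the AJ851868/mm9 hybrid genome (Bowtie2 is named in the submitters' processing notes) and collapsed repeated junctions. Each list the authors deposited gives 1 junction per line, with bait and prey coordinates, orientation and read sequence, without normalization. Junctions were assigned to regions whose boundaries were read from the study's tracks. The members, lists and tests were chosen with earlier results of these data known.

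Shares and medians were computed per library and compared by two-sided exact permutation tests. Junctions were pooled for Fisher's exact test, called under 0.05 after adjustment by the Benjamini-Hochberg method, and pooled ratios carry exact conditional 95% intervals. Shares of single libraries have Wilson 95% intervals, and a count of 0 allows 3 junctions. Bins of 3 kb needed at least 5 junctions. The text names the study's S regions, called bins, the most used prey position of each region, at most 5 1-Mb bins outside the window, and listed AID targets that held a junction. Microhomology was the overlap of bait and prey alignments within the read. Bases were read from preys aligned without gaps. Each library held between 3476 and 6097 junctions in the window. Genes came from the mm9 annotation, with 2000 bases added on each side. Software was scipy 1.17.1, pandas 2.3.3 and numpy 2.4.6 under Python 3.11.15, with matplotlib 3.10.9 for plots. Alternatives covered denominators, boundaries, repeated positions, prey and read length, the replicate block, and leaving out each library. The 3′IgH CBEs-deleted libraries enter only 1 closing comparison.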

Additional observations from a re-analysis of the deposited data

Results flagged for a closer look

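The inversional share of Sμ junctions moved in opposite directions with stimulation in the 2 genotypes, WT and 3′IgH CBEs-deleted. In WT it was 3.16 percentage points higher with LPS/αIgD-dextran than with αCD40/IL4. In the deleted cells, which lack the CTCF-binding elements at the 3′ end of IgH, it was 28.3%, 30.9% and 31.5% with αCD40/IL4 and 22.2%, 22.0% and 23.0% with LPS/αIgD-dextran, a difference of -7.86 percentage points between means of 30.3% ± 1.71 and 22.4% ± 0.556 (SD, n = 3). In both genotypes the libraries of the 2 stimulations did not overlap, and the difference between the genotypes was not tested. The WT difference was not called among preys of 100 bases or more.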

How the results depend on the processing

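The shares of Sγ3, Sγ2b, Sγ2a, Sε and Sγ1 kept their direction and their call in all 67 alternatives run on them. With Sγ1 junctions in the denominator the Sμ difference (LPS/αIgD-dextran minus αCD40/IL4) changed from -17.5 to 0.602 percentage points, and that of Sα, 0.114, became called. Among preys of 100 bases or more the inversional difference was 1.41 points and no longer called, and in merged reads of 200 to 300 bases, an alternative chosen after seeing the data, it was 2.68 points and not called. Microhomology of 4 bases or more gave a called difference of 0.903 points. With DGYW/WRCH in place of AGCT the motif difference was -0.832 points. In merged reads of 200 to 300 bases the bait break difference was 0 bases. With 1-kb bins 35 of 46 bins were called. Deviations of same-numbered libraries had correlations of -0.448, -0.384 and -0.128 over 9 bins of Sμ, and those of unlike-numbered libraries ran from -0.157 to 0.543. With so few bins and libraries these values cannot show whether same-numbered libraries were paired. Replicates 1 and 2 shared a sequencing run between the stimulations, and αCD40/IL4 replicate 3 had a run of its own. With the replicate block the differences of microhomology, 0.932 points, and of junctions outside the window, -1.76 points, became called, and 14 bins were called. For these 2 differences the block required only that same-numbered differences share a direction. The direction of the difference outside the window also depends on leaving Sγ1 out of its denominator. Leaving out each library gave ranges of 0.335 to 1.46 points for microhomology (called without LPS/αIgD-dextran replicate 3), of -0.177 to 1.13 for insertions (reversed without αCD40/IL4 replicate 3 and called without LPS/αIgD-dextran replicate 1), and of -2.32 to -1.18 for junctions outside the window (called without αCD40/IL4 replicate 1 or LPS/αIgD-dextran replicate 3). The cause of these changes was not tested. Without the junctions that LPS/αIgD-dextran replicates 2 and 3 share, left out of replicate 3, no call changed. Counts under 15 junctions per library, as in Sα and at single genes, limit what these libraries can show.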
